A study of Drosophila melanogaster with 3 samples.

Results

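Products of the Cpr and Twdl genes are among the proteins of the cuticle of Drosophila melanogaster. Binding of the transcription factor Nerfin-1 near these genes is described here. The genes were chosen by name: protein-coding genes whose symbol in the Ensembl annotation starts with Cpr or Twdl. The rule took 96 of the 13945 protein-coding genes on the 6 chromosome arms. Of these, 1 is Cpr itself (FBgn0015623), which encodes NADPH-cytochrome P450 reductase, an electron donor to P450 enzymes, and not a cuticle protein. Without it there are 95 cuticle protein genes, 70 named Cpr and 25 named Twdl, of which 6 lie on arm 2L, 22 on 2R, 35 on 3L, 24 on 3R and 8 on X. Values below are for these 95 genes unless Cpr is named.

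The cuticle is a layered shell of chitin fibres and proteins that epidermal cells secrete at their outer face towards the end of embryogenesis and again before each moult. Most Cpr proteins carry the Rebers and Riddiford (RR) consensus, a stretch that binds chitin. Twdl genes encode the Tweedle family, a set of secreted cuticle proteins specific to insects. A dominant mutation of TwdlD gives a short, wide larva. Nerfin-1 is a zinc-finger transcription factor best known from newly born neurons, where it takes part in axon guidance and keeps neurons from reverting to a stem-cell-like state.

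Chromatin immunoprecipitation and sequencing (ChIP-seq) was done on whole embryos of both sexes aged 4 to 16 h, in 3 biological replicates that form 1 group; the age is from the label of the sample source, and another label gives an age too large for an embryo. All came from a fly line with a stably inserted nerfin-1 transgene whose product ends in green fluorescent protein, and chromatin was precipitated through that tag. There is no untagged, mutant or treated group, so the comparisons are between these genes, all other genes and the replicates. In whole embryos, a site bound strongly in few cells and one bound weakly in many cannot be told apart. The data are lists of peaks on the dm6 build, each peak with a summit, its point of highest signal. The lists of the 3 replicates and of the pooled replicates held 30000 peaks each, and a shorter list, limited by the irreproducible discovery rate (IDR), held 7056, the top of the pooled list by signal. Read depth cannot be seen from these lists. Each summit was assigned to whichever protein-coding gene had the closest transcription start site (TSS), and ranks count from 1 at the peak with the highest deposited signal.

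The sites that carry the account are few, and their sequences are shown first. The first 4 are all IDR summits assigned to cuticle genes, and the last is the strongest cuticle gene summit that a single replicate held alone. Each is 101 bases of the plus strand centred on the summit, read from the RefSeq release 6 genome, which shares its coordinates with dm6. Of 11 words sought, capitals mark the E-box word CACGTG and the word TCAGT of the initiator. On either strand, TCAGT was in 15.7% of such windows at IDR summits of other genes.
Cpr92A, chr3R:19584858-19584958: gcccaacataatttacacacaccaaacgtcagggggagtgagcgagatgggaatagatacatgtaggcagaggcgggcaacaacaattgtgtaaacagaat
Cpr65Eb, chr3L:7090936-7091036: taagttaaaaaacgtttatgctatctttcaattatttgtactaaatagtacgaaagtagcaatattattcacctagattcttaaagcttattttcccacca
Cpr100A (stronger), chr3R:30860651-30860751: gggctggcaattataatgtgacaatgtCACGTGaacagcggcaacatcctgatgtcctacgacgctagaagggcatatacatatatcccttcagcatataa
Cpr100A (weaker), chr3R:30865416-30865516: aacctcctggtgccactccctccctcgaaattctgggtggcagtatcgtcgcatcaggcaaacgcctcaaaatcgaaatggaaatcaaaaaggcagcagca
Cpr76Ba (replicate 2), chr3L:19516690-19516790: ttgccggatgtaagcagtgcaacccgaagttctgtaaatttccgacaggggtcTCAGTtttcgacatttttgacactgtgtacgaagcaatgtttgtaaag

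Few cuticle genes had a Nerfin-1 summit nearest to their start. In the IDR list, 3 of 95 did, namely Cpr92A, Cpr65Eb and Cpr100A. That is 3.16% (Wilson 95% interval 1.08 to 8.88, which covers counting error over genes only), against a background of 28.6% of all protein-coding genes. With the reductase gene Cpr counted, it was 4 of 96 (4.17%, 1.63 to 10.2). The pooled list, which reaches to much weaker peaks, gave 13 of 95 cuticle genes (13.7%, 8.17 to 22), against 51.8% of all genes. By family, 3 of 70 Cpr genes (4.29%, 1.47 to 11.9) and 0 of 25 Twdl genes had an IDR summit. For Twdl the count of 0 allows a share of up to 12%. In the pooled list, 11 Cpr genes (15.7%) and 2 Twdl genes (8%) had one. The intervals of the families overlap, and a difference between Cpr and Twdl was not tested. On each of the 5 arms with cuticle genes their measured share with an IDR summit was lower than that of the other genes. On 2L (0 of 6) and X (0 of 8), however, a count of 0 allows up to 50% and 37.5%. These limits lie above the shares of other genes there, 28.4% and 29.8%, so these arms cannot show a lower share. The highest share was 2 of 24 on 3R (8.33%, 2.32 to 25.8), where other genes reached 28.1%.

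In each replicate, too, few cuticle genes had a summit. To match the length of the IDR list, the 7056 peaks of highest signal were taken from each replicate. Replicate 1 then had a summit at 4 of 95 cuticle genes (4.21%), against 27.2% of all genes. Replicate 2 had one at 7 (7.37%), against 30.3%. Replicate 3 had one at 4 (4.21%), against 26.9%. The mean was 5.26% ± 1.82 (SD, n = 3) of cuticle genes, or 5 ± 1.73 genes, so the gap to the background in each replicate was larger than the spread between replicates. Over all 30000 peaks, the counts were 15 genes in replicate 1 (15.8%, against 53.1% of all genes), 24 in replicate 2 (25.3%, against 56.8%) and 14 in replicate 3 (14.7%, against 52.4%). Replicate 2 was thus the highest for cuticle genes, and it was also the highest for all genes.

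The genes with strong summits were not the same ones in each replicate. Cpr100A was the single cuticle gene with one in all 3 sets of strongest peaks. Cpr65Az, Cpr65Ec, Cpr67Fb and Cpr92A had one in 2 replicates, and Cpr51A, Cpr65Eb, Cpr73D and Cpr76Ba in 1; the other 86 had none. Over all peaks, 11 genes had a summit in all 3 replicates, 4 in 2 replicates and 12 in 1. Of those 12, 10 were in replicate 2. Cpr65Eb is 1 of these 10, although all 3 replicates held its site, as described below. Sharing between replicates was not counted over all protein-coding genes, so these counts cannot be called particular to cuticle genes. The remaining 68 cuticle genes (71.6%) had no summit in any of the 5 lists, against a background of 33.1% of all protein-coding genes. They include 47 of 70 Cpr genes (67.1%) and 21 of 25 Twdl genes (84%).

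**Figure D1:**
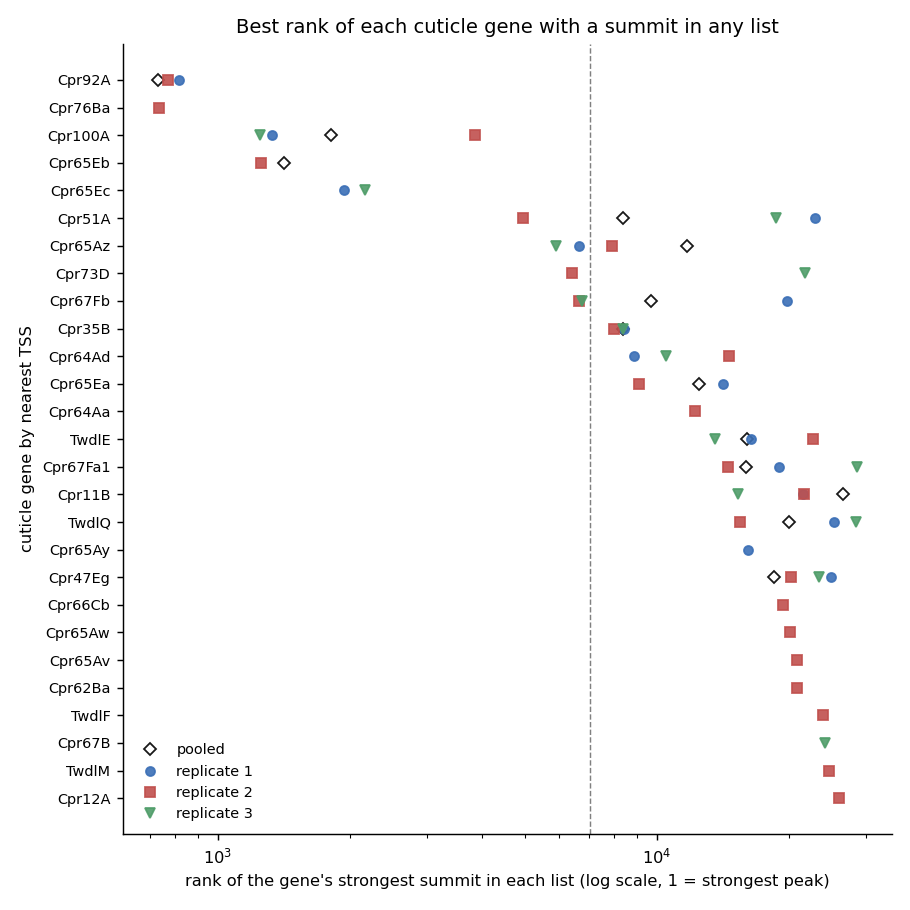
Rank of the strongest summit (log scale, 1 is the strongest peak) of each of the 27 cuticle genes with a summit in any list, for the pooled list and the 3 replicates; the dashed line is rank 7056, where the IDR list ends. Of the pooled diamonds, 3 lie left of the line, those of Cpr92A, Cpr100A and Cpr65Eb, and for 10 genes the square of replicate 2 is the only replicate symbol.

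The strongest of these sites lay far from the cuticle gene it was assigned to. The summit nearest to the TSS of Cpr92A (FBgn0038714, 3R:19597502-19598955, minus strand) was at position 19584908 of arm 3R, in a peak from 19584721 to 19585203, at IDR rank 731. It lay 14047 bp downstream of the start of Cpr92A, beyond the end of that gene and inside an intron of Dys, which encodes Dystrophin, a protein that ties the cytoskeleton to the extracellular matrix. The nearest annotated TSS for Dys was 15698 bp away. A small nucleolar RNA gene, snoRNA:Me18S-A1374, starts 1288 bp from the summit. The site ranked 817 in replicate 1 and 772 in replicate 2, yet replicate 3 had no summit within 38906 bp of it. Such a gap is rare for a strong site: of the 1000 strongest IDR summits, 20 had no summit of replicate 3 within 100 bp, and 15 each had none in replicates 1 and 2.

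The site at Cpr65Eb and Cpr65Ec lay between a pair of cuticle genes that point away from each other. Its summit, at 7090986 of arm 3L (peak 7090848 to 7091108), was in intergenic sequence 2199 bp upstream of Cpr65Eb and 2218 bp upstream of Cpr65Ec. It had IDR rank 1417 and ranks 1940, 1257 and 2166 in replicates 1, 2 and 3. All 3 replicates therefore held it among their strongest peaks, with summits within 29 bp of the pooled one. In replicates 1 and 3 the summit lay slightly nearer to Cpr65Ec, which is why that gene and not Cpr65Eb has the count there. The third gene of the cluster, Cpr65Ea, had weaker pooled summits 327 bp (rank 12762) and 924 bp (rank 12481) upstream of its start. Those were matched within 100 bp in replicates 1 and 2, at ranks 14149 and 10080 for the nearer and 25062 and 9112 for the farther, while replicate 3 had nothing within 3468 bp.

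Cpr100A (FBgn0039805, 3R:30867521-30869184, plus strand) had the most strong sites. Its stronger summit, at 30860701 of arm 3R (peak 30860568 to 30860940), lay 6820 bp upstream of its TSS and had IDR rank 1807. On the other side, 8386 bp away, is the TSS of tll, which encodes Tailless, a nuclear receptor that patterns the ends of the embryo and acts in neural stem cells. The ranks were 1326 in replicate 1, 3851 in replicate 2 and 1245 in replicate 3, so replicate 2 placed it lowest. The window around it holds the E-box word CACGTG, as do 1.65% of the windows at IDR summits of other genes. The weaker summit, at 30865466 (peak 30865248 to 30865683), lay 2055 bp upstream of Cpr100A, with CG15545 as the next gene, and had rank 6285, near the end of the IDR list. No replicate had a summit within 100 bp of it, the nearest being 116, 105 and 112 bp away. Those nearest summits ranked 5415, 4148 and 3771 in replicates 1, 2 and 3, and their peaks overlapped the pooled peak. All 3 replicates therefore had a strong peak over this site, with the summit placed slightly differently. In the pooled list Cpr100A had 6 summits.

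The fourth gene that the name rule took, the reductase gene Cpr, differed from the cuticle genes in where its summit lay. Position 6343662 of arm 2L is 37 bp from one of its own TSSs, the site had IDR rank 2266, and it ranked 2501, 2320 and 2994 in the replicates. All 3 replicates and both combined lists thus held a promoter summit at Cpr. None of the 4 IDR summits of cuticle genes was within 500 bp of a TSS, whereas 50.1% of the 7051 summits at other genes were. The median distance was 4510 bp for the 4 summits and 632 bp for the others; 4 summits are too few to give a firm share. In the pooled list 6 of 41 cuticle gene summits (14.6%) were within 500 bp of a TSS of any gene, against 32.3% of the other summits. The median rank was 15564 for the 41 summits and 14998 for the others. Base composition around the pooled summits was close, with a mean G+C of 41.6% at cuticle genes and 42.1% elsewhere.

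Below the limit of the IDR list, the next cuticle genes were Cpr51A, Cpr35B, Cpr67Fb, Cpr65Az and Cpr65Ea, with best pooled ranks of 8371, 8376, 9698, 11698 and 12481. Cpr35B had 18 of the 41 pooled summits. They lay 511 to 12031 bp from its start, in a long stretch of arm 2L that also holds a long non-coding RNA gene, CR44732, and that is flanked by Pburs, which encodes a subunit of the tanning hormone bursicon, and by CG15283. Replicate 1 had 16 summits assigned to Cpr35B, replicate 2 had 20 and replicate 3 had 15, the best at ranks 8414, 8007 and 8390. Cpr67Fb had pooled summits 425 and 628 bp upstream, and Cpr65Az had its better one 322 bp upstream. The site of Cpr65Az was among the strongest in replicates 1 and 3, at ranks 6661 and 6053, and had no summit within 100 bp in replicate 2. The nearest summit of replicate 2 was 306 bp from the pooled one, at rank 9712, and its peak overlapped the pooled peak.

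Some sites were held by replicate 2 alone, and Cpr76Ba, chosen after its values were seen, had the strongest of them. Its summit at 19516740 of arm 3L, 1592 bp from the start and downstream of the gene, ranked 735 in replicate 2. The nearest summits of replicates 1 and 3 were 40078 and 40488 bp away. Cpr92A and Cpr76Ba thus had summits of nearly equal rank in replicate 2, and each was missing from at least 1 other replicate. Cpr73D had a replicate 2 summit at rank 6422 in its own intron and a weak one, at rank 16821, 7 bp from its TSS and 257 bp from that of Ogdh, a gene of the citric acid cycle. Replicate 3 had a summit 233 bp from the same TSS of Cpr73D, at rank 21729. A summit of replicate 1 also lay 233 bp from that TSS but was not assigned to Cpr73D.

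A gene with more room around it can collect more summits, so each gene was given a territory, the number of bases closer to its TSS than to that of any other protein-coding gene. Cuticle genes had a median territory of 3.26 kb (range 0.878 to 26.4), against 4.25 kb for the others. Protein-coding genes were divided into 5 classes of equal size by territory. Among other genes, the share with an IDR summit rose with the class: 15.7% up to 1.8 kb, 22.2% up to 3.21 kb, 26.2% up to 5.74 kb, 33.8% up to 12.3 kb and 45.8% above. Cuticle genes had a summit at 0 of 20, 0 of 27, 1 of 20, 1 of 20 and 1 of 8, lower than other genes in all 5 classes. Had each cuticle gene had the share of its class, 26.1% or 24.8 genes would have had an IDR summit. The measured share minus this standard was −22.9 percentage points. For the pooled list the standard was 49.7%, or 47.2 genes, and the difference −36.1 points. In replicates 1, 2 and 3 the difference was −20.4, −20.3 and −20.3 points, so it varied far less between replicates than its own size.

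**Figure D2:**
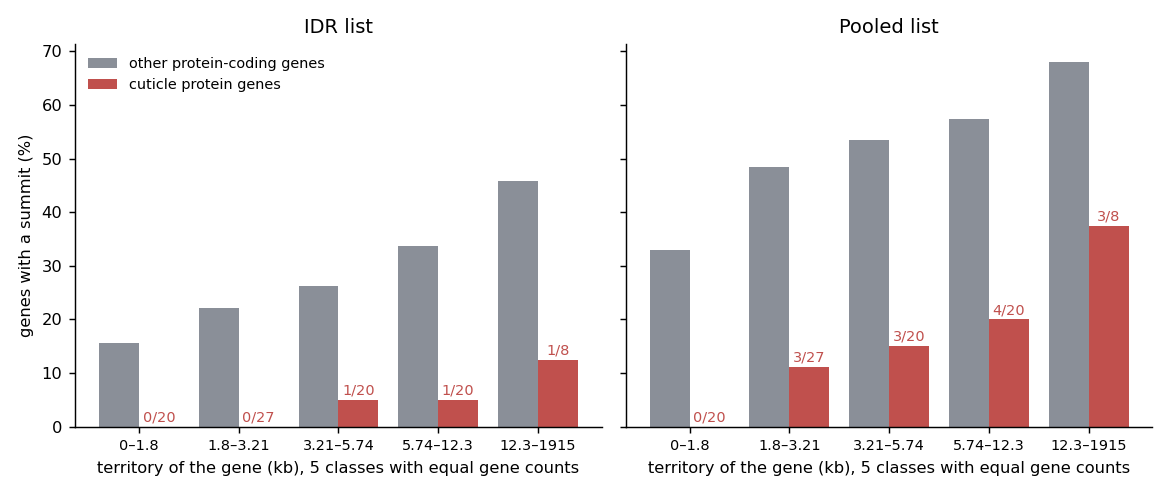
Share of genes with a summit (%) in 5 classes of territory (kb) with equal gene counts, for the IDR list (left) and the pooled list (right); grey bars are other protein-coding genes, red bars the 95 cuticle genes, with their counts above. The red bar is lower than the grey one in each class of both lists, and the grey bars of the IDR list climb from 15.7% to 45.8%.

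Large territories without an IDR summit differed in their weaker sites. The cuticle genes with the longest territories and no IDR summit were TwdlM with 26.4 kb, TwdlT with 18.1 kb and Cpr35B with 16.8 kb. TwdlM had 3 summits in replicate 2, the best at rank 24620, and none in the other lists. TwdlT had none in any list, and its TSS was 60281 bp from the nearest pooled summit and 61517, 20132 and 60532 bp from the nearest summits of replicates 1, 2 and 3. Cpr35B, in contrast, had the 18 pooled summits given above. Over all the cuticle territories, which add up to 478.94 kb, there were 8.35 IDR summits per Mb, against 52.9 per Mb in the territories of other genes. Pooled summits came to 85.6 and 225 per Mb, with 18 of the 41 cuticle gene summits at Cpr35B alone.

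Distance to the nearest summit does not depend on which gene a summit is assigned to. The TSS of a cuticle gene lay a median of 17435 bp from the nearest IDR summit (quartiles 9220 and 33413, range 850 to 77702), against 4529 bp for other genes. Within 500 bp, 0 of 95 cuticle genes had an IDR summit, against a background of 27.1% of all protein-coding genes. Within 1000 bp there was 1, Cpr65Ay, at 850 bp. Within 5000 bp there were 11 (11.6%), against 51.6% of all genes, and within 10000 bp 25 (26.3%), where other genes reached 66.4%. In replicates 1, 2 and 3 the median distance to any summit was 14042, 6449 and 11962 bp, against 474, 433 and 488 bp for other genes. Replicate 2 again had summits closest to cuticle genes, at more than 10 times the distance seen for other genes. The genes farthest from an IDR summit were the neighbours TwdlS, TwdlR and TwdlH, at 77702, 77202 and 76049 bp.

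**Figure D3:**
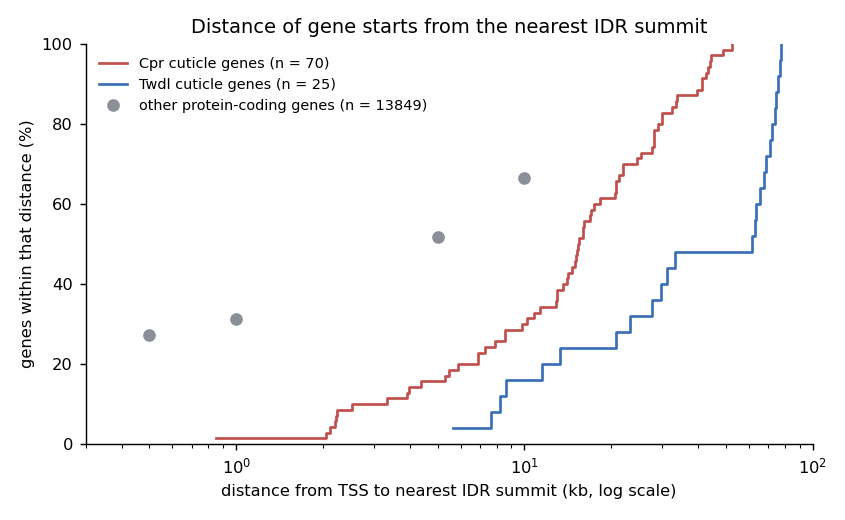
Cumulative share of genes (%) whose TSS lies within a given distance (kb, log scale) of the nearest IDR summit; the red step line is the 70 Cpr genes, the blue one the 25 Twdl genes and grey points the 13849 other protein-coding genes at 0.5, 1, 5 and 10 kb. Both lines run below the grey points, and the blue line climbs steeply at its right end, where the 12 genes of 1 Twdl array lie 61435 bp or more from any IDR summit.

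Many cuticle genes sit side by side, so their counts are not independent of each other. Joining cuticle genes less than 20 kb apart, a distance chosen after the genes were mapped, gave 42 loci, of which 27 held 1 gene, 2 held a pair and 13 were arrays of at least 3 genes. These 13 arrays held 64 of the 95 genes. Within an array and 2 kb to each side, 10 of 13 had no IDR summit, 9 had no pooled summit and 5 had no summit in any list. Other stretches of like length were not counted, so whether these counts are unusual was not tested. The array without a summit that held the most cuticle genes was that of TwdlM to TwdlD (3R:26619118-26641054), with 12 Twdl genes in 21.9 kb. Its nearest IDR summit was 61435 bp away and its nearest pooled summit 24140 bp. The nearest summits of replicates 1, 2 and 3 were 24122, 4103 and 30669 bp away. The array of Cpr49Aa to Cpr49Ah on arm 2R, with 8 cuticle genes, was longer at 38.5 kb and likewise had none. Of the 3 arrays with IDR summits, that of Cpr65Ea to Cpr65Ec had the site described above. That of Cpr47Ea to Cpr47Eg had 1, nearest to TpnC47D, a troponin C gene. That of Cpr65Au to Cpr65Az had 2, nearest to CG13297 and to Prdm13. Outside Cpr65E, no IDR summit in an array was therefore assigned to a cuticle gene.

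**Figure D4:**
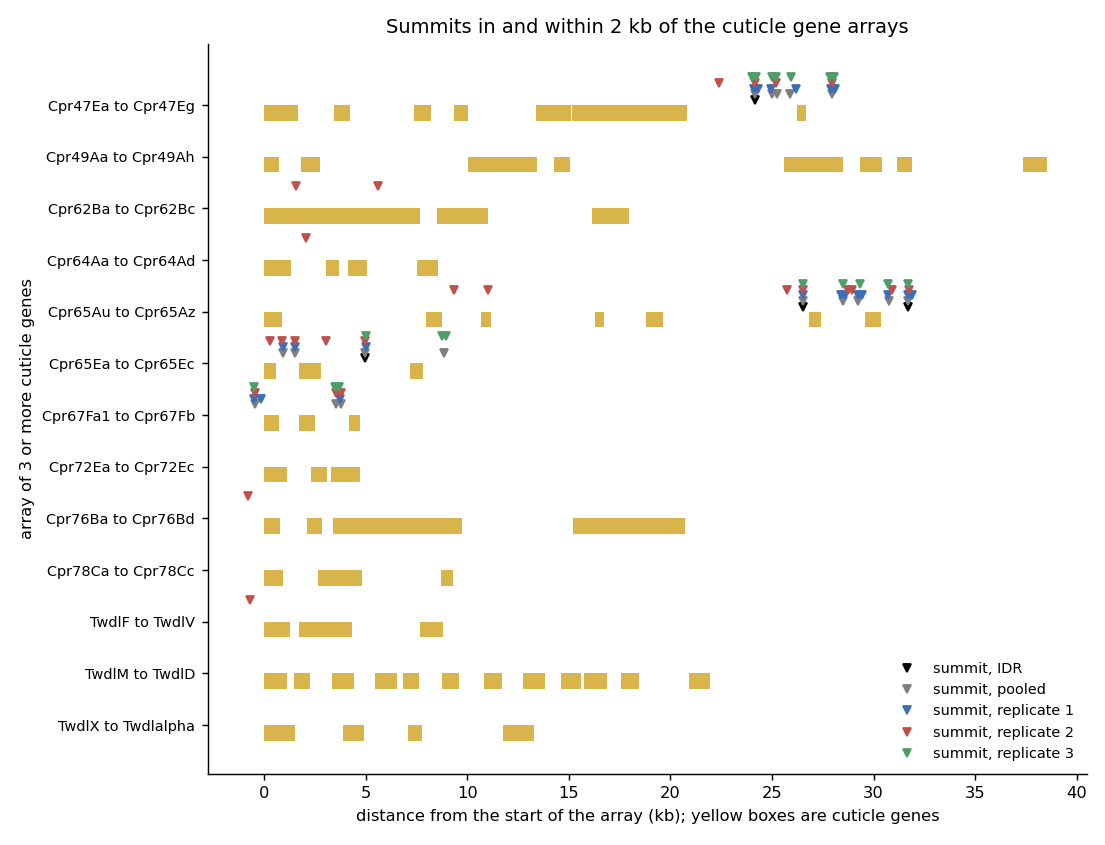
Map of the 13 arrays of at least 3 cuticle genes, each drawn from its first base (distance in kb); yellow boxes are Cpr and Twdl genes and triangles above them are summits of the IDR, pooled and replicate lists within the array or 2 kb of it. Triangles gather in the arrays of Cpr47E, Cpr65A, Cpr65E and Cpr67F, and 5 arrays, including the 12 genes from TwdlM to TwdlD, have none.

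Promoters of cuticle genes often held a TATA box. This element, the word TATAAA bound by TATA-binding protein, was sought on the sense strand with its first base 40 to 20 bases before the TSS. For all promoter words, the TSS used was the most upstream one of each gene. A box at another TSS was not counted, and several TSSs are more common among other genes than among cuticle genes. The box was there at 49 of 95 cuticle genes (51.6%) and at 7.5% of 13849 other genes. On either strand of the window from 250 bases before to 50 after the TSS, TATAAA occurred at 72.6% and 45.6%. Most other words, also on either strand, were about as common as elsewhere or rarer. TATCGATA, the word of the factor DREF of housekeeping promoters, was in 1 cuticle promoter (1.05%), against 9.42% of the others. The GAGA factor word GAGAGAG was in 1.05% and 5.9%, the E-box CAGCTG in 9.47% and 17.7%, and the initiator word TCAGT in 54.7% and 51.5%. ACCGGTT, the core of the word of Grainyhead, a regulator of the epidermis, was in 3 cuticle promoters (3.16%), against 1.86%. The longer form AACCGGTT, which contains it, was in none, against 0.758% of the others. For the remaining words, AAGGTCA (FTZ-F1) was in 0% and 2.12%, CAGGTAG (Zelda) in 0% and 1.65%, CATTCC (Scalloped) in 10.5% and 10.9%, and CACGTG in 2.11% and 4.22%. The 50 bases upstream of the TSS are shown, 5′ to 3′ on the strand of the gene, for the genes of the Cpr65E cluster, Cpr100A and the 6 genes of the Twdl array that had the TATA box, which is in capitals. All the genes shown have the box, so they do not compare genes near a strong site with genes far from one. Cpr92A and the other genes of the Twdl array did not have the box in place and are left out. Coordinates are those of release 6.
Cpr65Ea, chr3L:7086609-7086658, minus strand: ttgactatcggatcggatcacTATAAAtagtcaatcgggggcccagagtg
Cpr65Eb, chr3L:7088788-7088837, minus strand: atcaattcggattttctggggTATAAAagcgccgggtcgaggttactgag
Cpr65Ec, chr3L:7093154-7093203, plus strand: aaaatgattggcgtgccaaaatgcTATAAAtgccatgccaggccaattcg
Cpr100A, chr3R:30867471-30867520, plus strand: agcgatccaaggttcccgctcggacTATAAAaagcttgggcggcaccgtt
TwdlM, chr3R:26619068-26619117, plus strand: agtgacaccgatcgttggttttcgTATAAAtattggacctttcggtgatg
TwdlP, chr3R:26621365-26621414, minus strand: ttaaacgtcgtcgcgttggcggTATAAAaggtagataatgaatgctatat
TwdlB, chr3R:26623544-26623593, minus strand: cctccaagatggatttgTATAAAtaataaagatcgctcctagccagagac
TwdlN, chr3R:26631819-26631868, plus strand: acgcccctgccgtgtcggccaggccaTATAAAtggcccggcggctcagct
TwdlR, chr3R:26634835-26634884, plus strand: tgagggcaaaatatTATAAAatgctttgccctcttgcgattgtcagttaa
TwdlD, chr3R:26639975-26640024, plus strand: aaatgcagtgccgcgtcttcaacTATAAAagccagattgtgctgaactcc

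The share of genes with a summit was also counted separately for genes with and without a TATA box. Of the 1038 other genes with the box in place, 13.5% had an IDR summit, against 30% of the 12811 without it. Among cuticle genes the counts were 2 of 49 (4.08%) with the box and 1 of 46 (2.17%) without it. In the pooled list they were 9 of 49 (18.4%) and 4 of 46 (8.7%), the opposite order to that of other genes, where 29.9% and 53.8% had one. Whether this order differs was not tested. Cuticle genes also have fewer start sites: 87 of 95 (91.6%) have a single TSS, against 73.4% of other genes. Other genes with a single TSS had an IDR summit in 21.6% of cases and cuticle genes in 3 of 87 (3.45%). With the standard taken over classes of territory and TATA box, a choice made after these values were seen, 19.8% or 18.8 of the 95 cuticle genes would have had an IDR summit. Adding the single TSS gave 18.1% or 17.2 genes, with only 7 other genes in the smallest class. Against 3.16% measured, the gap was smaller than with territory alone and kept its direction. The part of TATA boxes and start sites in the result was not tested further.

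Related gene lists put the cuticle genes in context. Of 127 listed symbols 122 were matched, and each list is read beside its own standard by territory. Other cuticle proteins of the RR type (the Lcp, Ccp, Acp and Edg genes) had an IDR summit at 1 of 28 genes (3.57%, standard 20.9%). It was that of Ccp84Aa, at rank 358, in an intron of the Hox gene pb at 6709054 of arm 3R, with ranks of 373, 348 and 485 in the replicates. Chitin-binding matrix proteins had one at 0 of 13 (a count that allows up to 23.1%, standard 26.8%), and hardening and pigment enzymes at 0 of 10 (up to 30%, standard 33.9%). In the IDR list, structural proteins and the enzymes that harden them were thus low or at 0. For the lists of 13 and 10 genes, however, the upper limits lie only just below the standards. In the pooled list these 3 lists differed, with 1 of 28 (3.57%), 4 of 13 (30.8%) and 3 of 10 (30%). There, 13.7% of the Cpr and Twdl cuticle genes and 51.8% of all genes had a summit.

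The lists of chitin enzymes and of regulators had higher counts. Genes of chitin synthesis and modification had one at 8 of 21 (38.1%, standard 34.2%), led by Gfat2, whose enzyme starts the pathway to the chitin building block, at rank 2778, and by the chitinase gene Cht7 at rank 2916. Apical matrix proteins had one at 6 of 23 (26.1%, standard 35.3%), led by the zona pellucida genes qsm at rank 1258 and tyn at rank 2191. Each list lay within 10 percentage points of its standard. Regulators of the epidermis had one at 12 of 13 (92.3%, standard 45.8%), with Ubx, a Hox gene, at rank 12 and tinc at rank 18; tinc encodes a membrane protein, and its place in this list, and so in its count, is doubtful. Factors of the response to the moulting hormone ecdysone had one at 12 of 14 (85.7%, standard 41.5%), with the nuclear receptor genes Hr3 and Hr4 at ranks 108 and 144. Long territories are common in these 2 lists, with medians of 40.1 and 37.9 kb. The top territory class holds all genes above 12.3 kb, so the standards do not adjust for length within it. Some genes of these 2 lists, such as SoxN and EcR, are known to act in the nervous system as well. Whether the summits at them bear on cuticle was not tested.

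**Figure D5:**
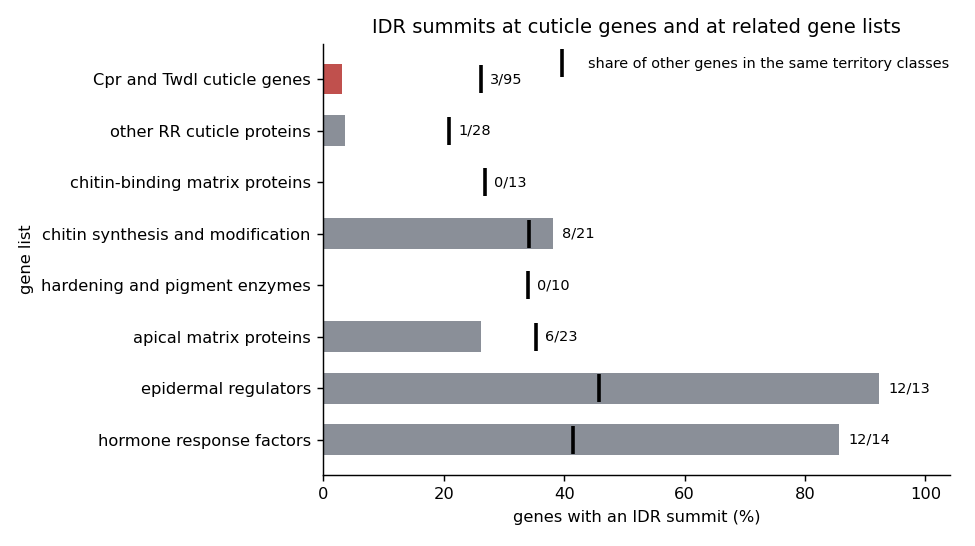
Share of genes with an IDR summit (%) for the 95 Cpr and Twdl cuticle genes (red) and 7 related lists (grey), with counts beside each bar; black ticks mark the share of other genes in the same territory classes. The bars of cuticle and matrix structural proteins end left of their ticks, and those of epidermal regulators (92.3%) and hormone response factors (85.7%) far to the right.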

How the data were processed

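Peak lists on dm6 in narrowPeak form were deposited for 3 replicates, for the pooled replicates and after an IDR threshold; each was called against a control not used here, per the file headers. For the aligner, the peak caller and the IDR threshold, nothing is given in the sources used here. Each peak's signal value (column 7), as the authors deposited it with no stated normalization, was used only to rank peaks within a list. Deposited −log10 q-values (column 9) were left unused. Depth per replicate is unknown, so no precision could be set from it.

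Genes and TSSs came from Ensembl release 115 (BDGP6.54), sequence from RefSeq release 6. A summit is the start plus column 10. Summits within 100 bp were counted as the same site; a TSS within 500 bp made a promoter summit. The standard is the mean, over cuticle genes, of the share of other genes in the same of 5 territory classes. With 1 group, results are counts and means ± SD over replicates, with no test. The members, gene lists and words were chosen with earlier results of these data known. Members named were those with an IDR summit, the 5 next in the pooled list, the 3 with the longest territory without an IDR summit, genes across a named summit and the 2 best-ranked genes of each related list; others were named after their values were seen. Wilson 95% intervals and limits for a count of 0 (3 counts) cover counting error over genes, and neighbouring genes are not independent. Assignment and matching were tested on simulated data. Alternatives changed the assignment, the TSSs, the strength limit, the matching distance, the promoter width, the classes, the replicates and the gene Cpr. Python 3.11.15, numpy 2.4.6, pandas 2.3.3 and scipy 1.17.1 were used.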

Additional observations from a re-analysis of the deposited data

How the results depend on the processing

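Of 46 alternatives, 24 gave about the same value, 22 moved it and 0 turned a direction. With the 96 genes of the name rule, 4 had an IDR summit, in 5 summits; this fell to 1 gene and 1 summit within 1000 bp of the TSS and to 2 and 2 for summits inside gene bodies (Cpr and Cpr73D). Pooled summits were at 14 genes, at 8 within 1000 bp and at 2 inside gene bodies. The share of the 5 IDR summits at promoters was 20% and 0% without Cpr. Over all peaks, the mean per replicate rose from 6 to 18.7 genes. The gap to the territory standard, −22 points, was −20.9 within 1000 bp, −13.5 inside gene bodies, −21.7 with the TSSs of all genes, −11.5 for the stronger 50% of the list, −22.4 with 10 classes and −22.9 without Cpr. Also without Cpr, and so to be set against −22.9, standards by TATA box, by territory and TATA box, and by these and a single TSS gave −18.3, −16.6 and −14.9; leaving out Cpr and these standards were chosen after seeing the data. Leaving out 1 replicate each gave −15.4 to −13.2 points, 3 to 4 genes and 3 to 4 summits, 33.3% to 25% at promoters and 5 to 6.5 genes per replicate; those lists were shorter (3701 to 4654 summits), and Cpr92A was lost without replicate 1 or replicate 2. The cause was not tested where none is given.

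No paired analysis was possible because the 3 replicates form 1 group. The lists give no counts or depth, 3 replicates are the only measure of error, all share 1 transgenic line and there is no untagged control. The lists end at 30000 peaks, so weaker sites are not seen. Being nearest to a summit does not make a gene its target. How reads were placed in near-identical cuticle genes is not stated.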
